A study of Homo sapiens with 12 samples.

Results

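RNA levels of 9 enzymes of glycogen metabolism, encoded by GYS1, GYG1, GBE1, UGP2, PYGB, PYGL, PHKA1, PHKB and GSK3B, were followed in HCT116 cells, a human colorectal carcinoma line. These genes were taken by name from the 58233 genes of the deposited table, as members of the pathway that is classically controlled by the protein phosphatase PP1, and all 9 had enough counts to be tested. The 4 groups of 3 libraries each were untreated HCT116 Tet-OsTIR1 cells (parental), the same cells after 48 h with 2 µg/ml doxycycline (Dox) and 500 µM IAA (Dox/IAA), untreated SDS22-degron cells, and SDS22-degron cells after the same Dox/IAA treatment. Dox switches on rice TIR1 in both lines, from a gene inserted at AAVS1. In the SDS22-degron line, PPP1R7 additionally encodes a fusion of SDS22, a regulator of PP1, to the mAID and mClover tags, which TIR1 and IAA target for degradation. Edited cells were selected with hygromycin and G418 and expanded from isolated colonies, so an effect of the tagged SDS22 and a difference between such a colony and the parental culture cannot be told apart where the lines are compared. All cells were kept in DMEM with a low glucose content.

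Glycogen is a branched polymer of glucose from which cells draw glucose units when supply falls. UGP2 makes UDP-glucose, glycogenin (GYG1) primes the polymer, glycogen synthase (GYS1) lengthens it and the branching enzyme GBE1 adds side chains, while the glycogen phosphorylases PYGB (brain form) and PYGL (liver form) cut off glucose 1-phosphate. Phosphorylase kinase, with the regulatory subunits PHKA1 and PHKB, switches phosphorylase on by phosphorylation, GSK3B phosphorylates and restrains glycogen synthase, and PP1 removes both kinds of phosphate. Read counts show the amount of mRNA and none of these phosphorylations.

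Library totals ran from 12133915 to 14657508 counts, and 16657 genes had enough of them for a test. The standard error of the log2 fold change, as a median over those genes, came to 0.11 for a pair of groups and to 0.156 for the interaction. Levels are TMM-normalized CPM, the share of a library's counts scaled to a common depth. The replicates are labelled as biological and the series describes 3 independent experiments, and p-values measure the spread between these libraries only. Of 8 markers of colon epithelium, 7 passed the filter (KRT8, KRT18, KRT19, EPCAM, CLDN7, CDH1 and CDX2), and VIL1 had at most 2 counts. Their summed levels were 3590 to 3990 CPM in untreated and 2760 to 3270 CPM in treated parental libraries, and 3520 to 4330 CPM and 3460 to 3940 CPM in untreated and treated SDS22-degron libraries. KRT8 and KRT18 fell in both lines, and CDH1 rose by 1.00 in SDS22-degron and by 0.36 in parental cells on the log2 scale (interaction 0.64, adjusted p = 0.029), as did CLDN7 in SDS22-degron cells (0.39, interaction 0.50, adjusted p = 0.0185). The 4 blood markers summed to at most 0.158 CPM and the 5 markers of muscle and liver to at most 0.365 CPM. Those of fibroblasts and endothelium summed to 10.6 to 16 CPM in untreated and to 17.6 to 32.8 CPM in Dox/IAA-treated libraries, with COL1A1 and VWF as the 2 of 5 that were tested and DCN at 0. The part of these marker changes in the results for the members was not tested. In bulk libraries of this kind, fewer cells of a type and less RNA per cell cannot be told apart.

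Per length, the phosphorylases were the most abundant members in every group. PYGL was at 63.8 ± 2.65 CPM per kb in untreated parental cells (SD, n = 3) and PYGB at 54.6 ± 6.73 CPM per kb. GYS1 followed at 19.7 ± 0.5 CPM per kb and GSK3B at 15.4 ± 0.712 CPM per kb. GYG1, UGP2 and GBE1 lay between 8.62 and 11.5 CPM per kb, and the kinase subunits PHKA1 and PHKB were lowest at 6.87 and 6.46 CPM per kb. PYGL was above PYGB without overlap of libraries in both untreated groups, whereas their libraries overlapped in both Dox/IAA-treated groups. GYG1 and UGP2, UGP2 and GBE1, and PHKA1 and PHKB overlapped in untreated parental cells. The order of the first 4 was the same in all 4 groups, although GYS1 and GSK3B overlapped in treated parental cells. These ranks rest on the length deposited for each gene, which is 11822 bases for PHKB. The lengths of the transcripts present in the cells were not measured. In CPM without this division, PHKB was at 76.4 in untreated parental cells, above UGP2 (67.7), GBE1 (44.6), PHKA1 (43.6) and GYG1 (40.4). Of the isoforms outside the members, PYGM, GYS2 and GYG2 were scarce. Muscle phosphorylase PYGM had 4 to 22 counts per library, liver glycogen synthase GYS2 had 0 to 13 counts and was not tested, and GYG2 had 0 counts. GSK3A, the paralog of GSK3B, was at 21 ± 1.21 CPM per kb and PHKA2, the liver form of the alpha subunit, at 3.52 ± 0.25 CPM per kb over all 12 libraries. Per length, GSK3A was thus above GSK3B, but in CPM the mean of GSK3B was the higher one in every group. In untreated parental cells GSK3B was at 123.7 and GSK3A at 83.6 CPM, with deposited lengths of 8006 and 4126 bases.

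**Figure D1:**
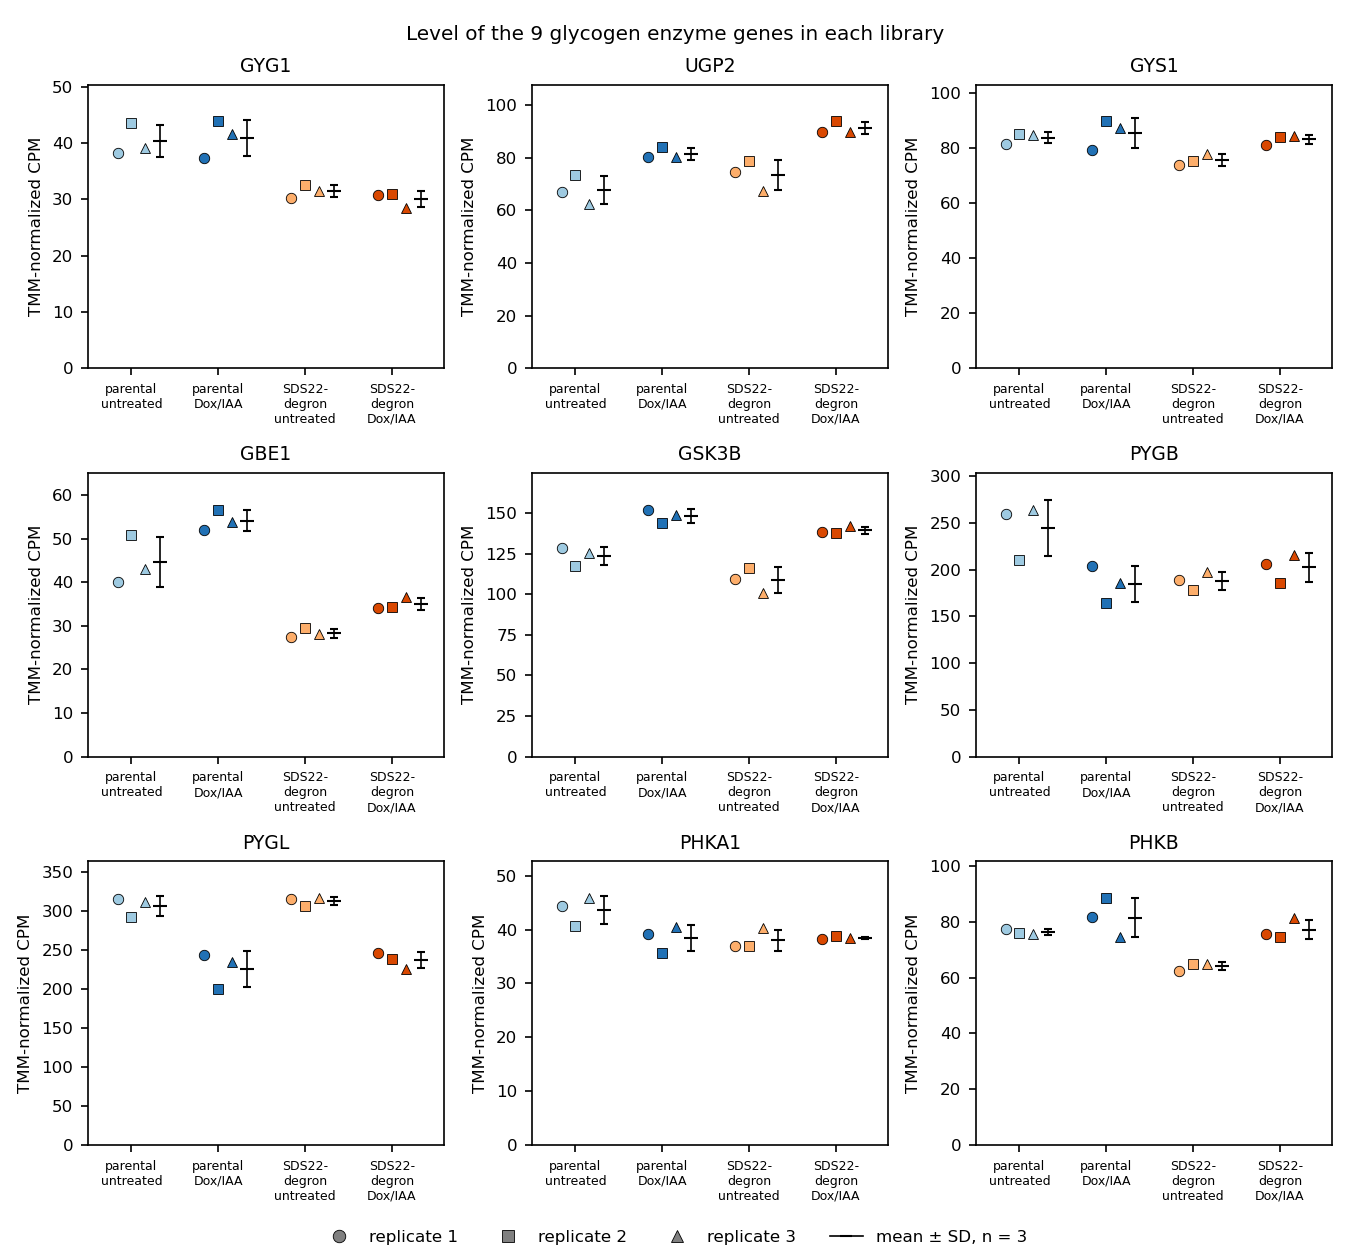
TMM-normalized CPM (y axis, from 0) of each of the 9 genes in each of the 12 libraries, by group (x axis); symbols mark the replicate number, and the bar beside them gives the mean ± SD of 3 libraries. PYGL is lower after Dox/IAA in both lines, PYGB is highest on average in untreated parental cells, and GBE1 and GYG1 are lower in SDS22-degron cells with and without treatment.

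The first question was how 48 h of Dox/IAA changed the members in the line whose SDS22 is degraded, and in the parental line, which has no degron and serves as the background of the treatment. In SDS22-degron cells, UGP2, GBE1, PHKB and GSK3B rose and PYGL fell, so that 4 of 9 members were higher and 1 of 9 was lower. Of all tested genes, 26.0% were higher and 25.5% lower in this comparison, where a call rests on the quasi-likelihood test of edgeR and a Benjamini-Hochberg adjusted p below 0.05, here and throughout. In parental cells, UGP2, GBE1 and GSK3B rose and PYGL and PYGB fell, which is 3 of 9 higher and 2 of 9 lower beside 15.9% and 15.7% of all tested genes. The libraries of the 2 groups did not overlap for 6 of 9 members in SDS22-degron cells (59.9% of all tested genes) and for 6 of 9 in parental cells (41.3%). The median absolute log2 fold change of the members was 0.27 in SDS22-degron cells and 0.26 in parental cells, against 0.32 and 0.22 for all tested genes.

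Among the enzymes of synthesis, UGP2 (ENSG00000169764, chromosome 2, 63840940 to 63891562) was at 67.1, 73.3 and 62.5 CPM in the untreated and 80.2, 84.0 and 80.1 CPM in the treated parental libraries. In SDS22-degron cells it was at 74.4, 78.7 and 67.5 CPM before and 89.7, 93.8 and 89.9 CPM after Dox/IAA. Each treated library thus lay above each untreated library of its line. The log2 fold change was 0.27 (SE 0.0732, adjusted p = 0.00976) in parental and 0.31 (SE 0.0723, adjusted p = 0.00155) in SDS22-degron cells. GBE1 (ENSG00000114480, chromosome 3, 81489699 to 81762161) was at 39.9, 50.9 and 42.9 CPM in untreated and 51.9, 56.6 and 53.8 CPM in treated parental libraries. In SDS22-degron cells it rose from 27.3, 29.4 and 28.1 CPM to 34.2, 34.2 and 36.5 CPM. The groups did not overlap in either line, but replicate 2 of the untreated parental cells came within 1 CPM of the lowest treated library. Log2 fold changes were 0.28 (SE 0.0843, adjusted p = 0.0176) in parental and 0.31 (SE 0.0887, adjusted p = 0.00755) in SDS22-degron cells. The call of GBE1 in parental cells was lost without untreated replicate 1 (0.20, adjusted p = 0.11), untreated replicate 3 (0.25, adjusted p = 0.0633) or treated replicate 2 (0.25, adjusted p = 0.0505), and that in SDS22-degron cells without treated replicate 3 (0.26, adjusted p = 0.0504). UGP2 in parental cells was not called without untreated replicate 3 (0.21, adjusted p = 0.0563).

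GYS1 and GYG1 passed the test with Dox/IAA in neither line. GYS1 (ENSG00000104812, chromosome 19, 48968125 to 48993310) was at 73.6, 75.2 and 77.7 CPM in untreated and 81.2, 83.7 and 84.3 CPM in treated SDS22-degron libraries, a log2 difference of 0.14 (0.00 to 0.27 as the 95% interval, adjusted p = 0.0806). The treated libraries were all above the untreated ones, yet the difference missed the threshold in the fit across all genes. In parental cells GYS1 was at 81.2, 85.0 and 84.8 CPM before and 79.2, 89.5 and 87.1 CPM after treatment, and these overlapped. GYG1 (ENSG00000163754, chromosome 3, 148991341 to 149027668) had log2 fold changes of 0.02 (-0.15 to 0.19) in parental and -0.06 (-0.24 to 0.11) in SDS22-degron cells. Its range was 37.4 to 43.9 CPM over the 6 parental libraries and 28.5 to 32.5 CPM over the 6 SDS22-degron libraries, treated or not.

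GSK3B (ENSG00000082701, chromosome 3, 119821323 to 120094417), the kinase that restrains glycogen synthase and has many other substrates, was at 128.4, 117.3 and 125.3 CPM in untreated and 152.0, 143.9 and 148.8 CPM in treated parental libraries. In SDS22-degron cells it went from 109.5, 116.2 and 100.7 CPM to 138.6, 137.7 and 142.0 CPM. It was higher in every treated library of each line. The log2 fold change of 0.26 (SE 0.0647, adjusted p = 0.00485) in parental cells and 0.36 (SE 0.0648, adjusted p = 0.000154) in SDS22-degron cells was called with each library left out. The interaction, which is the difference between the lines in the Dox/IAA effect, was 0.10 (-0.10 to 0.29, adjusted p = 0.531).

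PYGL (ENSG00000100504, chromosome 14, 50857891 to 50944736) was the member that fell in both lines. It was at 315.4, 291.7 and 311.5 CPM in untreated and 242.9, 199.6 and 234.1 CPM in treated parental libraries. In SDS22-degron cells the levels were 315.5, 306.5 and 315.9 CPM before and 245.7, 238.6 and 225.3 CPM after Dox/IAA. Treated and untreated libraries were well apart in each line, and the lines overlapped in both conditions. The log2 fold change was -0.44 (SE 0.0712, adjusted p = 0.000156) in parental and -0.40 (SE 0.071, adjusted p = 0.000118) in SDS22-degron cells, a 1.36-fold and a 1.32-fold lower level. The interaction of 0.04 (-0.17 to 0.25, adjusted p = 0.838) has an interval that reaches at most 0.25 in size.

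PYGB (ENSG00000100994, chromosome 20, 25248069 to 25298014) was the only member whose response to Dox/IAA differed between the lines in the test of the interaction. It was at 259.5, 209.7 and 263.8 CPM in untreated and 203.7, 164.6 and 185.4 CPM in treated parental libraries. The SDS22-degron libraries were at 188.9, 177.7 and 197.3 CPM untreated and 206.2, 185.2 and 215.7 CPM treated. Parental libraries thus fell without overlap while the SDS22-degron groups overlapped, and replicate 2 was the lowest library of each of the 4 groups. Log2 fold changes were -0.40 (SE 0.0913, adjusted p = 0.00252) in parental and 0.11 (SE 0.0913, adjusted p = 0.346) in SDS22-degron cells. The interaction was 0.51 (SE 0.129, 95% confidence interval 0.24 to 0.78, adjusted p = 0.0122). With this gene, 1 of 9 members was higher and 0 were lower in the interaction, beside 6.03% and 8.35% of all tested genes. No member was lower at an unadjusted p under 0.05 either, and DESeq2 likewise gave 1 higher and 0 lower. The interaction of PYGB was called in 21 of 21 alternatives, with values from 0.45 to 0.59 and adjusted p from 6.71e-05 to 0.0423. Before treatment, PYGB was lower in SDS22-degron than in parental cells by a log2 fold change of -0.38 (SE 0.0912, adjusted p = 0.00432), and after treatment the lines differed by 0.13 (-0.06 to 0.32, adjusted p = 0.255). The untreated parental libraries enter the effect in parental cells, the difference between the untreated lines and the interaction, so these values are not independent of each other. ABHD12, a gene on the opposite strand that overlaps PYGB, had 449 to 866 counts per library, which is 23.2% of the counts of PYGB over all libraries. It rose in both lines, with log2 fold changes of 0.47 (adjusted p = 2.22e-05) in SDS22-degron and 0.22 (adjusted p = 0.0301) in parental cells. Antisense RNAs annotated within PYGB and PYGL had at most 3 counts in any library. The 5 tested genes with the most similar pattern were ZNF777 (r = 0.952), SLC25A38 (r = 0.931), KIAA1671 (r = 0.926), BTBD2 (r = 0.909) and PRKCSH (r = 0.906), by Pearson's r of log2 CPM with PYGB over the 12 libraries, chosen as the highest of all tested genes.

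Of the subunits of phosphorylase kinase, PHKB rose with Dox/IAA in SDS22-degron cells and PHKA1 was called in neither line. PHKB (ENSG00000102893, chromosome 16, 47461123 to 47701523), the beta subunit, was at 62.5, 64.9 and 64.9 CPM in untreated and 75.7, 74.7 and 81.3 CPM in treated SDS22-degron libraries. These did not overlap, and the log2 fold change was 0.27 (SE 0.0696, adjusted p = 0.00335). In parental cells PHKB was at 77.5, 75.9 and 75.7 CPM before and 81.8, 88.5 and 74.5 CPM after Dox/IAA, which overlapped (0.10, adjusted p = 0.316). The interaction of PHKB missed the threshold (0.17, -0.03 to 0.38, adjusted p = 0.256), so its response was not shown to differ between the lines. ITFG1 lies on the opposite strand over PHKB with 65.5% as many counts, and rose by 0.83 (adjusted p = 3.67e-08) in SDS22-degron and by 0.29 (adjusted p = 0.0039) in parental cells. The interaction of ITFG1 was called (0.53, adjusted p = 0.00157). Between the untreated lines ITFG1 was lower in SDS22-degron cells (-0.43, adjusted p = 0.000228), as PHKB was. The strand setting of the counting is not given in the sources used here, so reads of such overlapping pairs could not be assigned with certainty. PHKA1 (ENSG00000067177, chromosome X, 72578814 to 72714319), the muscle form of the alpha subunit, was at 44.3, 40.7 and 45.8 CPM in untreated and 39.1, 35.7 and 40.4 CPM in treated parental libraries (-0.18, adjusted p = 0.0784, and 0.0505 with the replicate number as a block). In SDS22-degron cells it was at 36.9, 36.9 and 40.3 CPM before and 38.2, 38.7 and 38.4 CPM after treatment (0.02, adjusted p = 0.885). Only the untreated parental libraries lay apart from their treated counterparts. By name, PHKA1 has the pseudogene PHKA1P1, with 10.3% as many counts, and GYG1 has GYG1P3 (11.3%) and GYG1P1 (5.94%). Whether reads were shared between them was not tested.

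**Figure D2:**
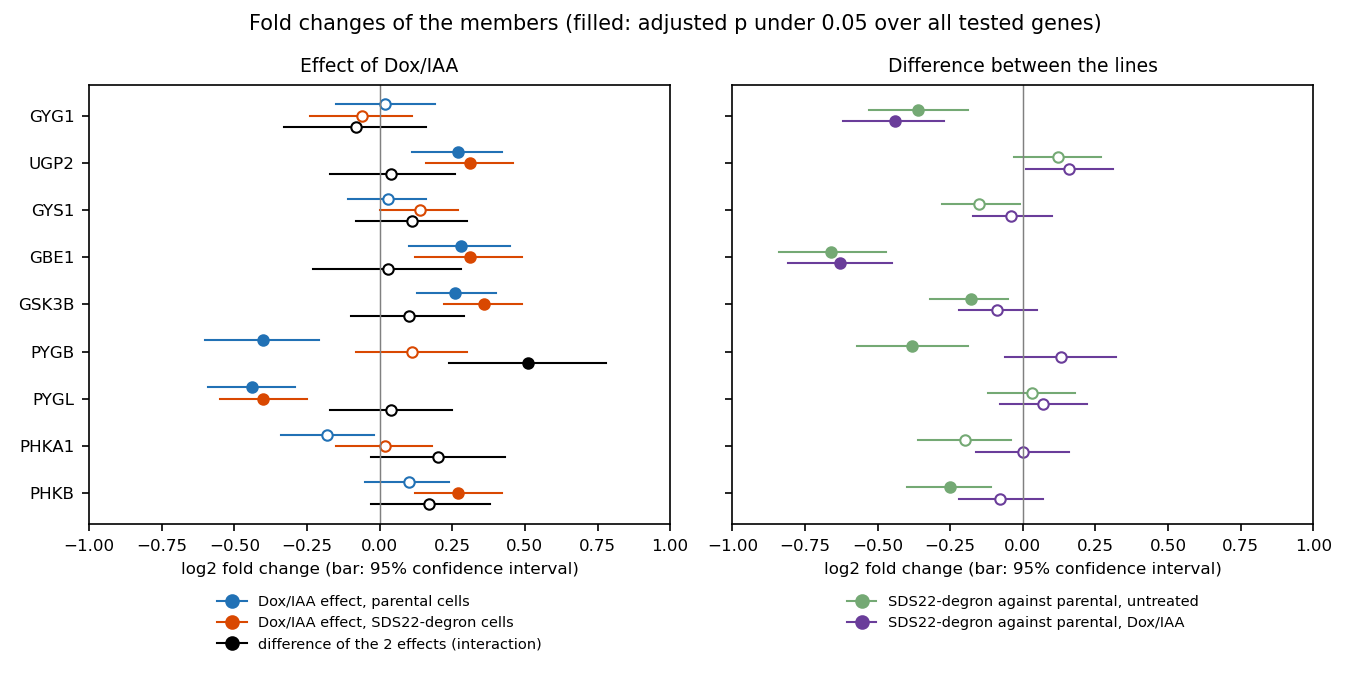
Log2 fold changes (x axis) with 95% confidence intervals of the 9 genes (y axis), for the effect of Dox/IAA in each line and the difference of these effects (left), and for SDS22-degron against parental cells without and with Dox/IAA (right). Filled points passed an adjusted p under 0.05; UGP2, GBE1, GSK3B and PYGL moved the same way in both lines, and the interaction is filled for PYGB alone.

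The regions upstream of the members that moved the same way in both lines, UGP2, GBE1 and GSK3B up and PYGL down, and of PYGB, are shown to place these genes beside each other. The sequences are the 250 bases before the first base of the gene in the RefSeq annotation of GRCh38.p14, read 5′ to 3′ on the strand of the gene. Capitals mark ACGTG and GCGTG on either strand (CACGT and CACGC on the other), the core that hypoxia-inducible factors are known to bind, which was chosen for the search after the results were known.
GBE1 (chr3:81761646-81761895, minus strand): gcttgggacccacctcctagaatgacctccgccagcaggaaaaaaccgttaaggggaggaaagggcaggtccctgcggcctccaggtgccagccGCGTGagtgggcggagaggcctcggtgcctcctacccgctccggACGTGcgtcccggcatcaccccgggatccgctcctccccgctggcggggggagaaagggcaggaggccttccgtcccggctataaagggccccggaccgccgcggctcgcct
UGP2 (chr2:63840719-63840968, plus strand): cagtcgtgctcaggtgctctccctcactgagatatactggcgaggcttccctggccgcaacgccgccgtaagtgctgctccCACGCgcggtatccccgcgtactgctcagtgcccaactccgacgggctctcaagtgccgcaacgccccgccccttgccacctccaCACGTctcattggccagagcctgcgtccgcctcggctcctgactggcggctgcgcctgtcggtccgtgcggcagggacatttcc
GSK3B (chr3:120094448-120094697, minus strand): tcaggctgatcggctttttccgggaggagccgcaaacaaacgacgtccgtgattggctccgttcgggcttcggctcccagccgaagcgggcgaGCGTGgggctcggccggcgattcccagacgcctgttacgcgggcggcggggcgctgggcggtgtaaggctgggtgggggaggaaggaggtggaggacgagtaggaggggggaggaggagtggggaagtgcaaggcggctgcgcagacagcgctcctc
PYGL (chr14:50944484-50944733, minus strand): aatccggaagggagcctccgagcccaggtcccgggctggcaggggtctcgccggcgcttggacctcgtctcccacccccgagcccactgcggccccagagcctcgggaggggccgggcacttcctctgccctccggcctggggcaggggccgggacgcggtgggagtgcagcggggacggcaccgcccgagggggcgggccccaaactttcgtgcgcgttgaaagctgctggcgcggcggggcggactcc
PYGB (chr20:25247835-25248084, plus strand): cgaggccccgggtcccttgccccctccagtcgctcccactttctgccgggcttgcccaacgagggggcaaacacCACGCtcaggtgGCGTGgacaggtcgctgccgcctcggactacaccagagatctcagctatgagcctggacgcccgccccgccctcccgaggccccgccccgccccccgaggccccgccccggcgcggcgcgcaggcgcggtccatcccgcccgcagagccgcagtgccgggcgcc
All 9 members were found by name in the RefSeq annotation, with 11 annotated starts, since UGP2 and PHKB have a further start each. ACGTG or GCGTG was present before 10 of the 11 starts, and in 43.2% of the 35116 upstream regions of the same length in the RefSeq table. The windows of PHKB overlap and hold the same matches, and counted by gene 8 of 9 members had a match. PYGL was the member without a match. GGGCGG, the core of the GC box, was present before all 11 starts and in 42.6% of the 35116 regions, and the members' regions were rich in GC, from 54.4% for PHKA1 to 77.2% for GYG1. The GC content of the 35116 regions was not measured, so these shares are not matched for it. Nor were these regions limited to genes expressed in the cells or to genes of the same class as the members. TATAAA was found before GBE1 and PHKA1, and in 10.7% of all regions. The matches describe the letters of these windows and no binding was measured.

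The second question was how far the lines differed before any Dox/IAA was given. In untreated cells, GYG1, GBE1, PYGB, PHKB and GSK3B were lower in the SDS22-degron line, which is 5 of 9 members lower and 0 higher, beside 15% and 13.2% of all tested genes. No member was higher at an unadjusted p under 0.05, and DESeq2 also gave 0 higher and 5 lower. Libraries did not overlap for 7 of 9 members (43.5% of all tested genes). GBE1 differed by the most, at 28.3 ± 1.03 CPM in SDS22-degron and 44.6 ± 5.67 CPM in parental cells (SD, n = 3), a log2 fold change of -0.66 (SE 0.0875, adjusted p = 2.11e-05). GYG1 was at 31.5 ± 1.1 and 40.4 ± 2.84 CPM (-0.36, SE 0.0826, adjusted p = 0.00295). PHKB was at 64.1 ± 1.39 and 76.4 ± 0.972 CPM (-0.25, adjusted p = 0.0106). For these genes every SDS22-degron library was below every parental one. GSK3B had the smallest called difference (-0.18, adjusted p = 0.0408). Its call was lost without untreated parental replicate 1 (-0.15, adjusted p = 0.149) or 3 (-0.18, adjusted p = 0.0985) and without untreated SDS22-degron replicate 1 (-0.19, adjusted p = 0.0898) or 3 (-0.13, adjusted p = 0.189). GYS1 (-0.15, adjusted p = 0.0921), PHKA1 (-0.20, adjusted p = 0.0614), PYGL (0.03, adjusted p = 0.797) and UGP2 (0.12, adjusted p = 0.243) did not pass.

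Of the 5 lower members, 4 lie on chromosomes on which many genes were lower. GBE1, GYG1 and GSK3B are on chromosome 3, where 44.7% of 939 tested genes were lower before treatment in the SDS22-degron line (median -0.27 on the log2 scale), and PHKB is on chromosome 16, where 45.7% of 726 genes were lower with a median of -0.30. On all other chromosomes 11.7% were lower with a median of 0.02, and of the 5 members there PYGB alone was lower. GYG1 was close to its 20 nearest tested genes, with -0.36 beside their median of -0.31, and so were PHKB (-0.25 beside -0.32) and GSK3B (-0.18 beside -0.13). GBE1 stood lower, at -0.66 beside a median of -0.25, and 3 of its 20 neighbours were more negative. PYGB (-0.38) had neighbours with a median of 0.05. The part of these chromosomes in the members' differences was not tested.

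**Figure D3:**
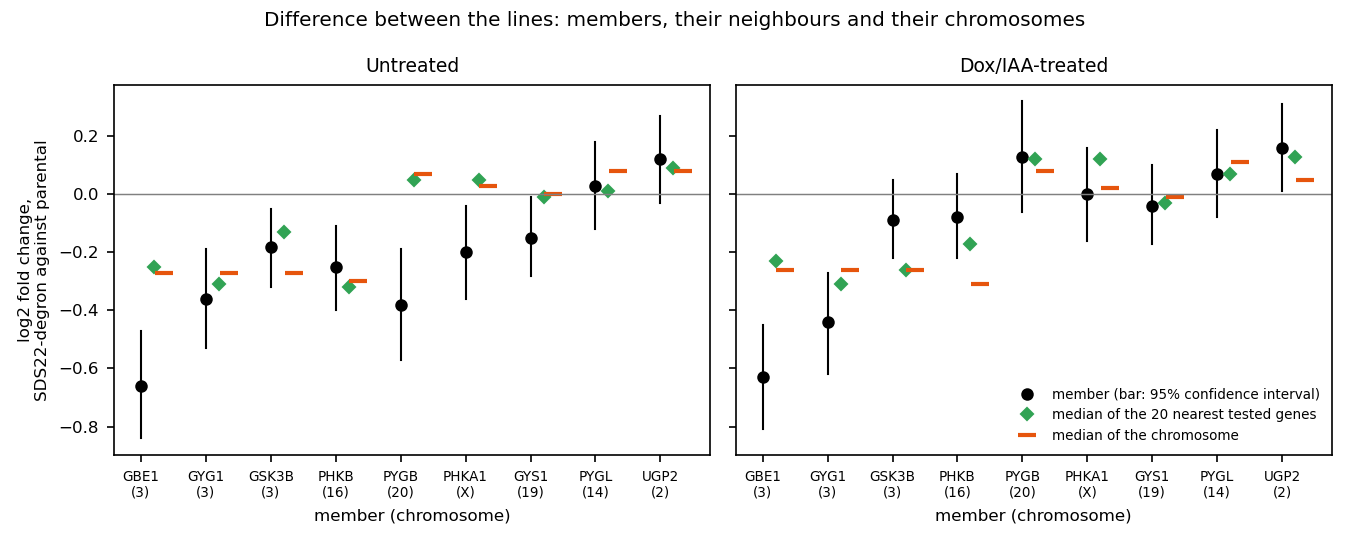
Log2 fold change of SDS22-degron against parental cells (y axis) for the 9 genes (x axis, chromosome in brackets), untreated on the left and Dox/IAA-treated on the right; black points are members with their 95% confidence interval, diamonds the median of the 20 nearest tested genes and dashes the median of the chromosome. GYG1, GSK3B and PHKB sit near their neighbours in untreated cells, whereas GBE1 lies below its neighbours in both panels.

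The comparison of the study set Dox/IAA-treated SDS22-degron cells against Dox/IAA-treated parental cells. Here GYG1 and GBE1 were lower, so that 2 of 9 members were lower and 0 higher, beside 23.1% and 21.8% of all tested genes. Both genes lie on chromosome 3, where 44.4% of 939 tested genes were lower in this comparison, beside 20.5% on chromosomes other than 3 and 16. The 20 nearest tested genes had a median log2 fold change of -0.31 for GYG1 and -0.23 for GBE1. The part of the chromosome in these differences was not tested. Before adjustment, UGP2 was the 1 member higher at a p under 0.05 in edgeR, and DESeq2 gave 0 higher and 2 lower. Libraries did not overlap for 4 of 9 members (52.9% of all tested genes). GYG1 was at 30.1 ± 1.36 CPM in SDS22-degron and 40.9 ± 3.26 CPM in parental cells (-0.44, SE 0.0831, adjusted p = 0.000273). GBE1 was at 35 ± 1.32 and 54.1 ± 2.35 CPM (-0.63, SE 0.0856, adjusted p = 1.01e-05). Both differences were present before the treatment, and neither interaction passed the test, with -0.08 (-0.33 to 0.16, adjusted p = 0.695) for GYG1 and 0.03 (-0.23 to 0.28, adjusted p = 0.909) for GBE1. At the cut-off of the study for this comparison, which combines p below 0.05 before adjustment with a log2 fold change beyond 1 in size, 0 of 9 members and 6.63% of all tested genes were called. The other 7 members had log2 fold changes from -0.09 (GSK3B) to 0.16 (UGP2), and the median absolute log2 fold change of all 9 was 0.09 against 0.28 for all tested genes. With the replicate number as a block, UGP2 was called as well (0.16, adjusted p = 0.0319), as it was without treated parental replicate 2 (0.20, adjusted p = 0.0499).

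Set against the paralog of the same enzyme, per length, PYGL was highest relative to PYGB in the untreated SDS22-degron libraries. The ratio of PYGL to PYGB was 1.56, 1.61 and 1.49 there, 1.13, 1.30 and 1.10 in untreated parental cells, 1.11, 1.13 and 1.18 in treated parental cells and 1.11, 1.20 and 0.97 in treated SDS22-degron cells. The untreated SDS22-degron libraries were above all others. The mean log2 ratio changed by -0.51 with Dox/IAA in SDS22-degron cells and by -0.04 in parental cells (exact permutation p = 0.1 and 0.8, two-sided, n = 3 per group). Between the untreated lines it differed by 0.40 (exact permutation p = 0.1), where the log2 fold change was 0.03 for PYGL and -0.38 for PYGB. With 3 against 3 libraries 0.1 is the smallest p these exact tests allow, and after adjustment over the 12 ratio comparisons it is 0.15. GSK3B rose relative to GSK3A with Dox/IAA in both lines, by 0.46 in SDS22-degron and 0.22 in parental cells on the log2 scale without overlap (exact p = 0.1 each). GSK3A itself had log2 fold changes of -0.10 (adjusted p = 0.265) and 0.05 (adjusted p = 0.667). The ratio of PHKA1 to PHKA2 lay between 1.54 and 1.97 over all libraries, and its log2 differences were at most 0.18 in size. Its libraries did not overlap either with Dox/IAA in SDS22-degron cells (0.17) and parental cells (-0.08), or between the untreated lines (-0.18). The exact p was 0.1 for each of these.

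**Figure D4:**
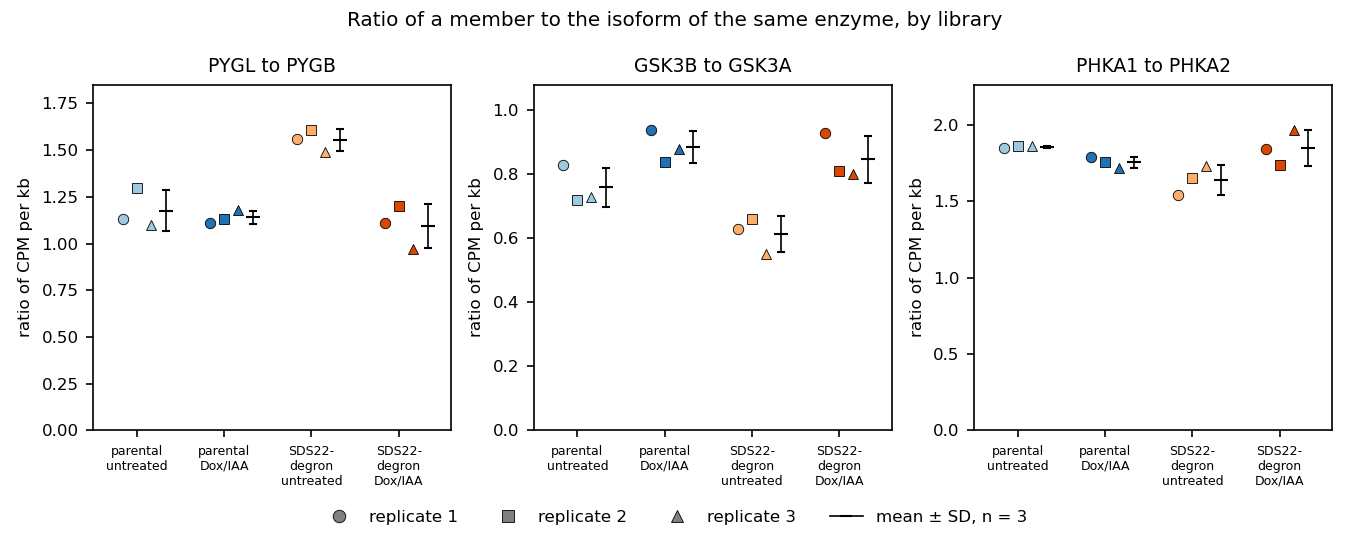
Ratio of CPM per kb (y axis, from 0) of PYGL to PYGB, GSK3B to GSK3A and PHKA1 to PHKA2 in each library by group (x axis), with the mean ± SD of 3 libraries. PYGL to PYGB is between 1.49 and 1.61 in untreated SDS22-degron cells and between 0.97 and 1.30 elsewhere.

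Around the members, 45 further genes of the pathway were examined, of which 38 had enough counts. With Dox/IAA, 12 were higher and 10 lower in SDS22-degron cells, where 26.0% and 25.5% of all tested genes were, and 8 were higher and 3 lower in parental cells (15.9% and 15.7%). Between the untreated lines 7 were higher and 4 lower (13.2% and 15%), between the treated lines 10 and 9 (21.8% and 23.1%), and in the interaction 2 and 4 (6.03% and 8.35%). The count in the interaction went from 6 to 3 without treated parental replicate 2 or without untreated SDS22-degron replicate 2. GAA, the lysosomal enzyme that degrades glycogen, rose in both lines, from 167.2, 156.7 and 161.4 CPM to 264.7, 275.1 and 259.9 CPM in SDS22-degron cells and from 150.3, 129.8 and 159.7 CPM to 191.9, 146.3 and 185.9 CPM in parental cells. The groups overlapped in parental cells only, and the rise was larger in SDS22-degron cells, with an interaction of 0.47 (SE 0.127, adjusted p = 0.0189). GPI, which turns glucose 6-phosphate towards glycolysis, fell by 0.71 in SDS22-degron and by 0.28 in parental cells on the log2 scale (interaction -0.43, adjusted p = 0.00211). HK2, a hexokinase, fell by 1.04 and by 0.78, and its interaction was not called (-0.26, adjusted p = 0.235). PHKG2, the catalytic subunit that pairs with the liver form of phosphorylase kinase, rose by 0.33 (adjusted p = 0.00796) in SDS22-degron cells and was at 0.02 (adjusted p = 0.889) in parental cells, with an interaction that was not called (0.30, adjusted p = 0.159).

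The subunits that bring PP1 to glycogen were expressed at low levels. PPP1R3A, PPP1R3C and PPP1R3G had 0 to 3 counts per library and were not tested. Among those tested, PPP1R3E was at 7.58, 6.26 and 5.39 CPM in untreated and 3.13, 3.48 and 1.98 CPM in treated SDS22-degron libraries (-1.15, adjusted p = 0.000148), without overlap. Its value in parental cells was -0.40 (adjusted p = 0.136), and the interaction was -0.76 (adjusted p = 0.0887). PPP1R3B, PPP1R3D and PPP1R3F rose in SDS22-degron cells by 0.36, 0.53 and 0.84 on the log2 scale (adjusted p = 0.03, 0.00234 and 0.00923). In parental cells PPP1R3B was at -0.05 (adjusted p = 0.811) and PPP1R3D at 0.34 (adjusted p = 0.0771), and neither interaction was called (0.41, adjusted p = 0.164 and 0.19, adjusted p = 0.547). PPP1R3F, with 10 to 108 counts per library, also rose in parental cells (1.00, adjusted p = 0.0274) and was higher in SDS22-degron cells before treatment (1.16, adjusted p = 0.0114). Of the catalytic subunits of PP1, PPP1CC fell in SDS22-degron cells (-0.42, adjusted p = 0.000239) and was at -0.16 (adjusted p = 0.126) in parental cells. Its interaction was not called (-0.25, adjusted p = 0.14), and it was lower between the treated lines (-0.21, adjusted p = 0.041). For the treated lines, the study describes the transcripts of the PP1 isoforms α, β and γ as unaffected by SDS22 depletion. The difference in PPP1CC is smaller than the log2 fold change of 1 in the study's cut-off. PPP1CA rose in parental cells (0.22, adjusted p = 0.00837) and was at 0.08 (adjusted p = 0.306) in SDS22-degron cells. Its interaction was not called either, and PPP1CB was called in no comparison. Of the kinases that act upstream, PASK fell with Dox/IAA in SDS22-degron cells (-0.63, adjusted p = 1.57e-05; interaction -0.48, adjusted p = 0.0173). PRKACB, a catalytic subunit of protein kinase A, was lower in untreated SDS22-degron cells by the most of the 38 genes, at 41.1, 49.2 and 48.1 CPM against 221.3, 206.9 and 225.6 CPM (-2.24, adjusted p = 3.62e-12). PGM2L1, which makes glucose 1,6-bisphosphate, was higher there (1.01, adjusted p = 3.59e-05), and so was PYGM (1.62, adjusted p = 0.00407) at its 4 to 22 counts.

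GYS1, GBE1 and PYGL are known to respond to hypoxia, so 12 other genes with this property were counted, of which 11 were tested and CA9 had 0 counts. With Dox/IAA, 6 were higher and 1 lower in SDS22-degron cells (26.0% and 25.5% of all tested genes), and 3 were higher and 3 lower in parental cells (15.9% and 15.7%). NDRG1 rose in both lines, by 1.12 and 1.10 on the log2 scale. LDHA fell by 1.02 in SDS22-degron and by 0.26 in parental cells (interaction -0.76, adjusted p = 0.000461). ADM (0.71, adjusted p = 0.00377) and VEGFA (0.66, adjusted p = 0.0199) had a higher interaction. ADM rose in SDS22-degron cells (0.63, adjusted p = 7.35e-05) and was at -0.08 (adjusted p = 0.614) in parental cells. VEGFA fell in parental cells (-0.55, adjusted p = 0.00343) and was at 0.11 (adjusted p = 0.488) in SDS22-degron cells. EGLN3 was higher in untreated SDS22-degron cells (1.11, adjusted p = 2.92e-05). Between the treated lines 6 were higher and 2 lower (21.8% and 23.1% of all tested genes), between the untreated lines 2 and 2 (13.2% and 15%), and in the interaction 2 and 1 (6.03% and 8.35%).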

How the data were processed

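Per the labels, mRNA was purified by its poly-A tail and turned into stranded libraries, of which single reads were taken. Gene-level read counts were deposited as raw values, together with the position, the length and the GC content (in percent) of each gene, with no normalization by the authors. The submitters' processing notes name cutadapt 1.15, Bowtie2 2.3.3.1, STAR 2.5.2b, SAMtools 1.5, featureCounts 1.5.3 and the build GRCh38. The annotation release and the strand setting are not given in the sources used here. Every one of the 12 columns of counts matched 1 sample label.

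All 12 libraries, with 12133915 to 14657508 counts each, entered 1 fit with the 4 group means as its terms (edgeR 4.0.16 in R 4.3.3, TMM factors 0.971 to 1.03, filterByExpr with a minimum count of 10, common biological coefficient of variation 7.48%). The quasi-likelihood F test was used, with Benjamini-Hochberg adjustment over 16657 genes. The study's likelihood ratio test was an alternative, next to DESeq2 1.42.0, other normalizations and filters, only the groups compared, the replicate block, a GC correction and each library left out. Levels per length divide CPM by the deposited gene length, and CPM correlations used a prior count of 2.

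The members and lists were chosen with earlier results of these data known. Named were the 9 members, their isoforms, the genes that overlap them, the 5 genes most like the member with the smallest interaction p, and of the other lists each gene with a called interaction or an absolute log2 fold change above 1. The further pathway genes PHKG2, PPP1R3B, PPP1R3D, PPP1CA, PPP1CB and PPP1CC were named after their values were seen. Replicate numbers come from the labels. Same-numbered libraries deviated together with r above 0.1 in all 3 pairs for the parental groups (0.124, 0.246 and 0.131) and for the treated lines (0.101, 0.133 and 0.138), which met the rule for pairs set here. Adjusted p-values are from the fit without the block, and values with it are given where they changed a call and for PHKA1.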

Additional observations from a re-analysis of the deposited data

Results flagged for a closer look

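For PYGB and 6 of the other 38 pathway genes tested, the effect of Dox/IAA differed between SDS22-degron and parental cells in the interaction test of edgeR's quasi-likelihood fit, in which 6.03% of all tested genes had a higher and 8.35% a lower interaction. The count of 6 ranged from 3 to 8 with each library left out, with 3 without treated parental replicate 2 or untreated SDS22-degron replicate 2. PYGB had an interaction log2 fold change of 0.51, with -0.40 in parental and 0.11 in SDS22-degron cells. GAA had 0.47 and PRKACB, a subunit of protein kinase A, had 0.44. Lower interactions were those of PASK with -0.48, GPI with -0.43, the calmodulin gene CALM3 with -0.33 and the casein kinase subunit CSNK2A2 with -0.25. CALM3 rose in parental cells (0.26, adjusted p = 0.00408) and was at -0.06 (adjusted p = 0.445) in SDS22-degron cells. CSNK2A2 fell in SDS22-degron cells (-0.27, adjusted p = 0.000471) and was at -0.02 (adjusted p = 0.776) in parental cells.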

How the results depend on the processing

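Of 765 alternative values of the members, 722 kept their direction and their side of the threshold, 12 lost the call, 8 gained it and 23 changed sign. Those that changed sign were uncalled values near 0. Outside the libraries left out, they were GYS1 with Dox/IAA in parental cells (-0.01 with the GC correction, -0.01 with the replicate block and GC correction) and PHKA1 between the treated lines (-0.01 without a filter, -0.01 with the GC correction, -0.0033 with both). With each library left out in turn, the ranges that crossed 0 were those of GYG1 in parental cells (-0.03 to 0.08), GYS1 in parental cells (-0.01 to 0.08) and between the treated lines (-0.09 to 0.02), PHKA1 in SDS22-degron cells (-0.01 to 0.06) and between the treated lines (-0.03 to 0.04), and the interactions of UGP2 (-0.04 to 0.10), GBE1 (-0.10 to 0.09) and PYGL (-0.03 to 0.07). The number of members called ranged from 3 to 5 with Dox/IAA in parental cells with libraries left out, with 3 without untreated parental replicate 3, and that of other pathway genes in the interaction from 3 to 8, with 3 without treated parental replicate 2 and 3 without untreated SDS22-degron replicate 2; the cause was not tested. The GSK3B difference between the untreated lines was also lost with normalization by library size only (-0.16, adjusted p = 0.0742), without a filter (-0.20, adjusted p = 0.0725) and with only the groups compared (-0.18, adjusted p = 0.0593). GYS1 with Dox/IAA in SDS22-degron cells was called with normalization by library size only (0.18, adjusted p = 0.0297). UGP2 between the treated lines (0.20, adjusted p = 0.0176) and PHKA1 between the untreated lines (-0.20, adjusted p = 0.0492) were called with the GC correction. The replicate block gave 5 members called with Dox/IAA in each line, 6 between the untreated lines (with PHKA1, -0.20, adjusted p = 0.0384), 3 between the treated lines (with UGP2) and 1 in the interaction, and changed no other member's call. The deviations of same-numbered libraries over all groups had r from -0.057 to 0.246, and each of the 12 libraries was closest to its own number. As the labels number the replicates and the series describes 3 independent experiments, the numbers may mark experiments. The main fit and the exact tests of the ratios took no account of this pairing. Standard errors of the members' log2 fold changes ran from 0.0638 to 0.0915 between 2 groups, and no smaller difference than those allow was detectable at this depth and number of libraries.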
